A study of Mus musculus with 312 samples.

Results

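Basal cells of the mammary gland were divided by their level of Krt17, the gene of keratin 17, and all other genes were compared between the cells above and below that level. The cells were labelled as basal cells from the mammary gland of pregnant FVB/NJ mice, with no treatment and no transgene named. A cell was used if it had at least 50000 assigned reads, meaning read pairs assigned to genes after mitochondrial and ribosomal protein genes were left out, and at least 1000 genes with a read. Of 75 pregnancy cells, 71 passed these limits. Cell 71, in which milk protein genes were the leading genes and Krt17 stood at 10.9 CPM (counts scaled to 1000000 assigned reads), was left out as well. The remaining 70 cells, of 312 cells in the whole series, were selected on Krt17 itself: 38 cells with at least 100 CPM are called Krt17-positive and 32 cells below 100 CPM are called Krt17-low. The other cells of the series were basal cells of adult FVB/NJ mice, 112 with a mark in their titles and 125 without, of which 81 and 58 passed the same limits. Each library was 1 cell captured on a microfluidic chip and sequenced after amplification of its cDNA. The study describes its pregnancy cells as total epithelium, whereas these labels say basal, so the basal identity was checked by markers below. The labels name no animals and no day of pregnancy, so cells of each set count as 1 sample, no test was possible, and all differences below are descriptions of these cells.

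Keratins are the intermediate filament proteins of epithelial cells, and each filament pairs a type I with a type II keratin. Keratin 17 is a type I keratin, as are keratins 14, 15 and 16, while keratin 5 and the keratin 6 proteins are type II. Krt17 is a gene of the basal layer of several glands and of skin appendages, and it is induced in keratinocytes after wounding and under stress. In the mammary gland the outer, basal layer holds myoepithelial cells, which carry both basal keratins and a smooth muscle contractile apparatus.

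Krt17 lies on chromosome 11 at 100256215 to 100261029 (mm10), close to Krt14 and Krt16, which code for related type I keratins. The stretch that could have mixed the reads of these genes is shown here, because the groups rest on the reads of 1 keratin alone. The longest run of the Krt17 transcript that recurs unchanged in Krt14 has 71 bases, lies in coding sequence of exon 6 of 8 at chr11:100257439-100257509 on the minus strand (GRCm38, the same assembly as mm10), and holds in capitals the 55 bases that Krt16 shares too.
Krt17: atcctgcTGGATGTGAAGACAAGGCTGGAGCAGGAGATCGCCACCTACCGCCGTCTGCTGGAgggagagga
A read has 75 bases, and 0 of the 1477 windows of that length in the Krt17 transcript occurred in the transcript of another gene. For Krt14, 96 of 1624 windows (5.91%) also occurred in Krt16, and for Krt5, 110 of 2123 windows (5.18%) also occurred in Krt6a, Krt6b or 2 predicted genes, so the values of Krt14 and Krt5 carry a small share of ambiguous sequence. Longer reads, the pairing of reads and sequencing errors were not considered.

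Krt17 formed a continuum over the pregnancy cells rather than 2 separate levels. In the Krt17-positive cells the level ranged from 105 to 4721 CPM with a median of 464 CPM, and in the Krt17-low cells from 0 to 80.8 CPM with a median of 23.8 CPM. The highest values were in cell 64 (4721 CPM, 1338 reads) and cell 5 (4665 CPM, 1138 reads). Just above the limit were cell 21 with 105 CPM from 26 reads and cell 40 with 146 CPM from 24 reads, and just below it were cell 43 with 80.8 CPM from 18 reads and cell 15 with 76.0 CPM from 10 reads. Most low cells were therefore not without the transcript: 27 of 32 (84.4%, exact 95% interval 67.2 to 94.7%) had at least 1 Krt17 read. The other 5, cells 8, 13, 18, 24 and 44, had none. Summed over cells, Krt17 had 10826 reads in positive cells (exact Poisson interval 10623 to 11032) and 229 in low cells (200 to 261). All such intervals cover counting error only, and since the libraries carried no molecular identifiers, reads that are PCR copies narrow them too far. After each cell was thinned at random to 50000 assigned reads, 40 of 70 cells were at or above 100 CPM and 2 cells had changed group.

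**Figure D1:**
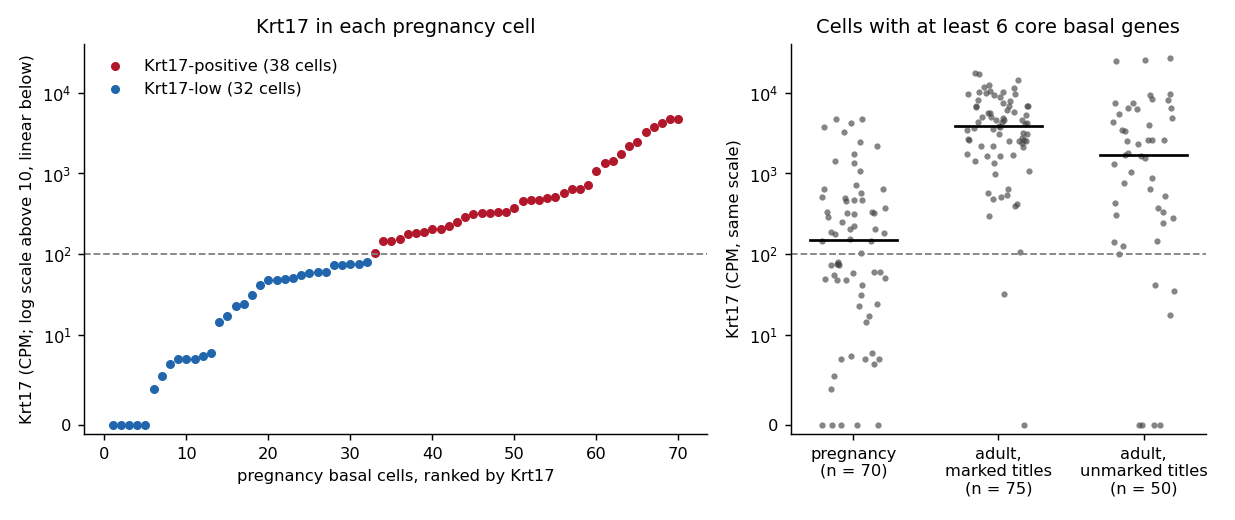
Krt17 in CPM on an axis that is logarithmic above 10 and linear below, for the 70 pregnancy cells in order of their value (left, dashed line at 100 CPM) and for the cells of each set with at least 6 core basal genes at 100 CPM (right, black line at the median). The pregnancy cells cross the limit without a gap, from 80.8 to 105 CPM, while the medians of both adult sets are above 1000 CPM.

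The split at 100 CPM fell at a different place in the adult cells. To compare like cells, cells were kept that had at least 6 of 10 core basal genes (Krt5, Krt14, Trp63, Acta2, Myh11, Mylk, Myl9, Cnn1, Tagln and Cxcl14) at 100 CPM. All 70 pregnancy cells met this, and 54.3% of them were Krt17-positive (38 of 70, exact interval 41.9 to 66.3%). Cell 71, left out beforehand, had 5 such genes and would not have met it, and no adult cell was left out in that way. Of the adult cells with marked titles that met it, 97.3% were positive (73 of 75, 90.7 to 99.7%), with a median of 3870.0 CPM. Of the adult cells with unmarked titles, 86.0% were positive (43 of 50, 73.3 to 94.2%), with a median of 1687 CPM. After thinning to 50000 reads the shares were 57.1% (40 of 70), 97.3% (73 of 75) and 82.0% (41 of 50). The labels do not say how the sets were prepared relative to each other, so stage and preparation cannot be told apart.

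Both groups of pregnancy cells were basal by their other markers. All 38 Krt17-positive and all 32 Krt17-low cells had at least 6 of the 10 core basal genes at 100 CPM, once cell 71, with 5 of them, had been left out. Fewer of the adult Krt17-low cells met this: 2 of 6 in the marked set and 7 of 14 in the unmarked set reached 6 core basal genes, against 73 of 75 and 43 of 44 Krt17-positive adult cells. Among the pregnancy cells, none of the 10 core basal genes differed by 2-fold between the groups, and their log2 ratios of mean CPM, Krt17-positive over Krt17-low with 10 CPM added to each mean, lay between -0.55 and 0.58 with a median of 0.12. Genes were compared if either group had a mean of 50 CPM or more. Over these 4653 genes, the median log2 ratio was 0.01 and the median absolute log2 ratio was 0.68, and 17.9% were at least 2-fold higher and 17.5% at least 2-fold lower. That share depends on the level: of genes with a mean of 1000 CPM or more in the higher group, as 7 of the 10 core basal genes had, 1.71% differed by 2-fold in either direction, so a count of 0 among the core genes is near the background.

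Among the keratins, Krt14, the usual type I keratin of basal cells, stood at 639 to 9206 CPM (median 3221) in positive cells and at 89.4 to 8219 CPM (median 3010) in low cells, a log2 ratio of 0.08. The ranges overlap almost entirely, and cell for cell the positive cell was the higher one in 52.7% of all pairs of a positive and a low cell after thinning, where 50% means no order. Its partner Krt5 stood at 0 to 1248 CPM (median 138) in positive and at 0 to 1974 CPM (median 172) in low cells, a log2 ratio of -0.55, and the positive cell was higher in 41.3% of pairs. Per kilobase of exon, the median level of Krt17 was 307 CPM in positive and 15.7 CPM in low cells, against 1940 and 1813 CPM for Krt14 and 62.8 and 78.6 CPM for Krt5. On that scale the typical positive cell held less Krt17 than Krt14 but more Krt17 than Krt5. Krt17 chose the positive cells, and its limit of 100 CPM over 1511 exon bases already lies above the median of Krt5 per kilobase. The order of Krt17 and Krt5 in positive cells was therefore fixed by the choice of cells.

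The keratins that accompany Krt17 in stressed and wounded skin were nearly silent. Krt6b had 0 reads in all 70 cells, and Krt6a, which pairs with keratins 16 and 17, had a mean of 0.632 CPM in positive and 0.461 CPM in low cells. Krt16 had a log2 ratio of 3.04, with means of 75.4 and 0.358 CPM, but this rested on cell 63 (2376 CPM) and cell 47 (472 CPM), the only cells at 100 CPM, which had 1076 and 467 CPM of Krt17. Without cell 63 the log2 ratio of Krt16 was 1.16. Krt15, a type I keratin of basal progenitor cells in skin, had means of 91.5 and 91.6 CPM and was at 100 CPM in 6 of 38 positive and 4 of 32 low cells, its highest value being 2251 CPM in the Krt17-low cell 25. Krt75 was at 100 CPM in 1 cell, the Krt17-low cell 18 (330 CPM).

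The contractile and lineage genes overlapped between the groups too, although their highest cells could differ. Acta2, smooth muscle actin, ranged from 4024 to 110742 CPM (median 16593) in positive and from 5090 to 45446 CPM (median 16829) in low cells. Mylk, the myosin light chain kinase, had medians of 6601 and 7993 CPM and a log2 ratio of -0.29. Cnn1, calponin, had medians of 1667 and 915 CPM with a log2 ratio of 0.22, and Tagln, transgelin, medians of 6445 and 4554 CPM with a log2 ratio of 0.45. Trp63, the p63 transcription factor of basal epithelia, had medians of 161 and 84.0 CPM with a log2 ratio of 0.58, and 22 of 38 positive against 14 of 32 low cells reached 100 CPM. Over the 18 compared genes of the contractile apparatus list, 0 were 2-fold higher and 0 were 2-fold lower, with a median log2 ratio of 0.19. Of the 18 genes, 11 had a mean of 1000 CPM or more in the higher group, where 1.71% of all genes differed by 2-fold, and 5 a mean from 200 to below 1000 CPM, where 19.5% did.

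**Figure D2:**
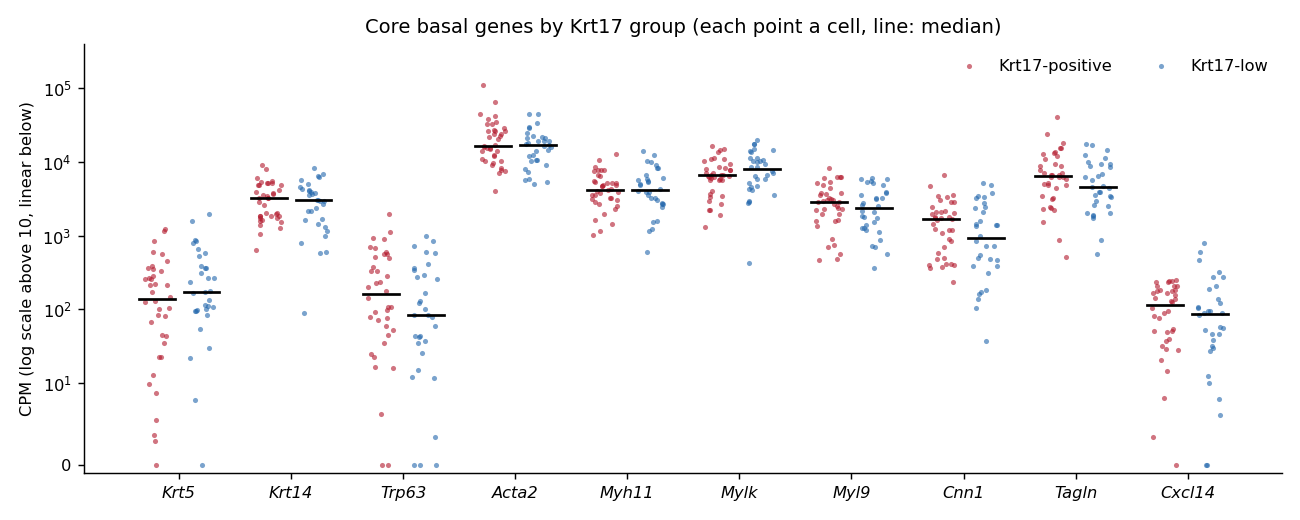
CPM of the 10 core basal genes other than Krt17, on an axis logarithmic above 10 and linear below, with 1 point per cell in red for the 38 Krt17-positive and in blue for the 32 Krt17-low cells, and a black line at each median. The points of both groups overlap for every gene, with log2 ratios of mean CPM from 0.58 for Trp63 to -0.55 for Krt5, while the upper ends can differ, as for Acta2 with 110742 and 45446 CPM.

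The groups were similar in depth. Assigned reads per cell ranged from 121375 to 396518 (median 243953) in positive cells and from 83688 to 405910 (median 213490.5) in low cells, a ratio of medians of 1.14, and the positive cell was deeper in 57.2% of pairs. Genes with a read after thinning to 50000 reads had medians of 3226 and 3149, and without thinning 4464 and 4451. The 3 cells with over 7000 genes, cell 45 (9378), cell 46 (8275) and cell 42 (7200), were all Krt17-positive; whether they held more than 1 cell was not tested.

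Mitochondrial reads took a somewhat smaller share in positive cells. The share ranged from 5.16 to 53.7% of all reads (median 17.9%) in positive cells and from 4.43 to 54.3% (median 20.6%) in low cells, a difference of medians of -2.64 percentage points, and the positive cell had the larger share in 41.0% of pairs. The upper ends differed more than the middle: the third quartile was 20.9% in positive and 32.0% in low cells. All 15 mitochondrial genes had a lower mean in positive cells, when scaled to the assigned reads, with log2 ratios from -0.78 to -0.25. By level of Krt17, the median share was 20.6% in the 32 cells below 100 CPM, 18.7% in the 21 cells from 100 to below 500 CPM and 16.8% in the 17 cells at 500 CPM or more.

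Ribosomal protein genes, which build the cytosolic ribosome, took a larger share in positive cells. They made up a median of 1.49% of all reads in positive and 1.10% in low cells, and the positive cell was higher in 64.4% of pairs. With mitochondrial reads left out of the total, the medians were 1.86% (range 0.786 to 2.84%) and 1.44% (0.693 to 2.61%), and the positive cell was higher in 60.4% of pairs. Among the 36 positive and 26 low cells with a mitochondrial share of at most 40%, it was higher in 59.7% of pairs. The share did not climb with Krt17, with a median of 1.97% from 100 to below 500 CPM and 1.62% at 500 CPM or more. Of the 61 ribosomal protein genes that reached a mean of 50 CPM, 38 had the higher mean in positive cells. The median log2 ratio of the ribosomal protein genes was 0.07, against 0.01 over the 4653 other genes compared. Only Rpl15 (149 against 27.5 CPM) and Rpl10a (130.4 against 58.2 CPM) were 2-fold higher. Of the 4653 genes 17.9% were, a share not matched to the level of the ribosomal protein genes. Without its highest cell Rpl10a was below 2-fold, with a log2 ratio of 0.81. In the adult cells split at the same Krt17 level the share, again without mitochondrial reads, was 1.59% in positive against 1.10% in low cells of the marked set, and 2.00% against 1.68% in the unmarked set, and the positive cell was higher in 61.6% and 61.4% of pairs. The adult low groups held 6 and 14 cells, of which 2 and 7 reached 6 core basal genes. In the adult sets, the level of Krt17 and the type of cell therefore cannot be told apart.

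**Figure D3:**
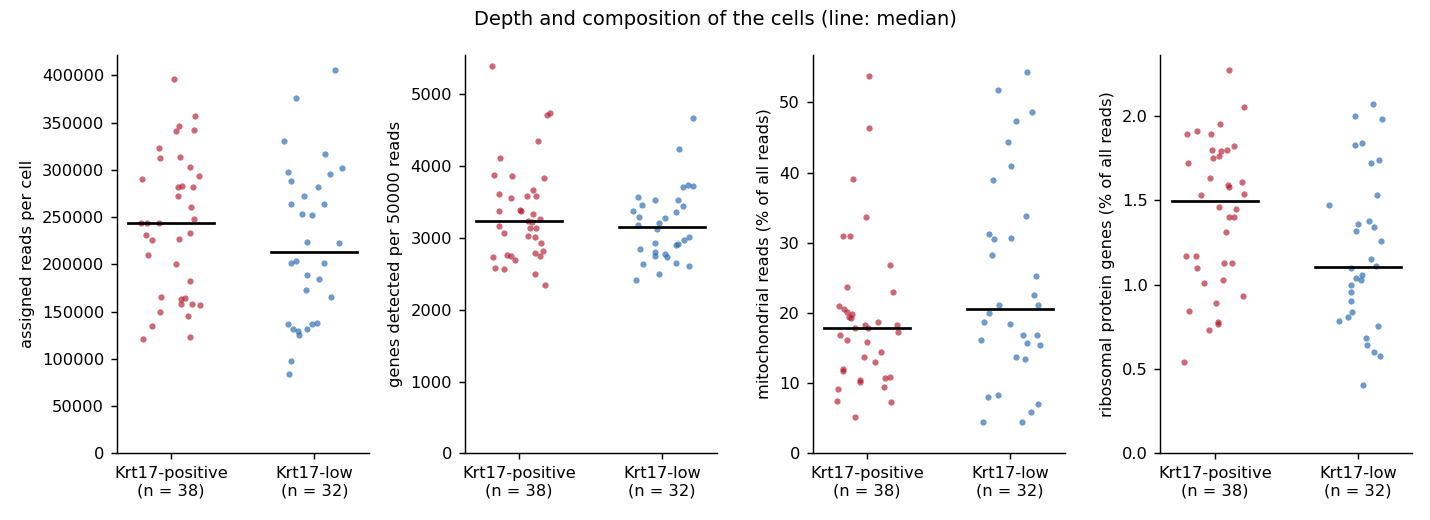
Assigned reads, genes detected per 50000 reads, mitochondrial share and ribosomal protein gene share of each cell for the 38 Krt17-positive (red) and the 32 Krt17-low cells (blue), with a black line at the median and each axis starting at 0. The groups overlap over nearly their whole range in all 4 measures, and the medians lie furthest apart for ribosomal protein genes, at 1.49 and 1.10%.

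Many genes differed by 2-fold in their mean, but most of these differences fell below 2-fold without the highest cell. Of 4653 genes compared, 834 (17.9%) were at least 2-fold higher and 815 (17.5%) at least 2-fold lower in Krt17-positive cells. When the highest cell of the higher group was left out, 495 of the 834 and 623 of the 815 fell below 2-fold. The share of genes with a 2-fold difference in either direction was 41.6% of the 3444 genes with a mean of 50 to below 200 CPM in the higher group, 19.5% of the 1092 genes from 200 to below 1000 CPM and 1.71% of the 117 genes at 1000 CPM or more. The last were 2 genes, named here after their values were seen: Tmem263 with means of 571 and 1358 CPM, and Fbln2, the matrix protein fibulin 2, with means of 557 and 1164 CPM. Requiring 2-fold by all 4 measures (ratio of means, ratio without the highest cell, ratio after thinning, and difference of mean log2(CPM + 10)) left 64 higher and 27 lower genes.

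No gene separated the groups cell by cell. The percent of pairs in which the positive cell was higher ran from 31.2% to 71.1% over the genes compared, with a median of 50.7%. It reached 70% for 4 genes (0.0860%) and was at most 30% for 0 genes (0%). The 4 genes, named for these values, were Rc3h2 (71.1%), which codes for an RNA-binding ubiquitin ligase, Eml1 (70.8%), a microtubule-associated protein, Kif23 (70.8%), a mitotic kinesin, and Tnfrsf1a (70.4%), the receptor 1 for TNF. Eml1 shows how the 2 kinds of measure can part: its mean was lower in positive cells, 38.5 against 75.3 CPM, because of a single low cell with 2311 CPM. At the other end were Tcf7l1, a transcriptional repressor of the Wnt pathway (31.2%, medians 7.06 and 36.3 CPM), Cdh3, P-cadherin of basal cells (31.4%, medians 24.3 and 70.4 CPM), and Taf13 (31.4%, medians 0 and 19.6 CPM). The mean of Taf13 was higher in positive cells all the same, 62.3 against 52.4 CPM.

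**Figure D4:**
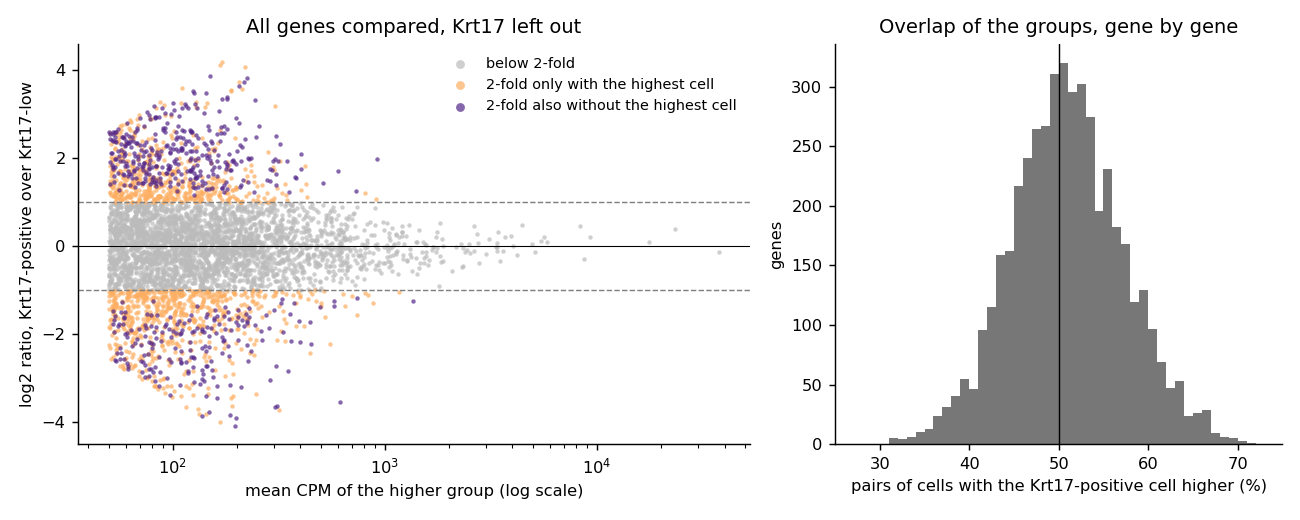
Left, the log2 ratio of mean CPM, Krt17-positive over Krt17-low, of the 4653 genes compared against the mean CPM of the higher group on a log axis, in orange where a 2-fold difference depends on the highest cell and in purple where it does not. Right, the number of genes by the percent of cell pairs in which the Krt17-positive cell was higher; the spread around 50% ends at 31.2 and 71.1%.

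The 12 genes with the most even excess in Krt17-positive cells had log2 ratios of 1.63 to 2.79 but belonged to varied functions. Serpinb6a, an intracellular inhibitor of serine proteases, had means of 319.7 and 55.4 CPM and was at 100 CPM in 17 of 38 positive and 3 of 32 low cells. Its values overlapped all the same, with medians of 32.1 and 6.95 CPM and highest cells of 2129 and 860.5 CPM. Tnfrsf1a had means of 219.7 and 32.3 CPM, and 10 positive against 2 low cells reached 100 CPM. Cell 49 (3842 CPM) held 46.0% of its sum over the positive cells, and without it the log2 ratio fell from 2.44 to 1.64. Ccng2, the cyclin G2 of cells leaving the cycle, had means of 206 and 21.2 CPM (16 against 2 cells at 100 CPM), whereas Cenpe, a kinetochore motor of dividing cells, had means of 315 and 74.7 CPM (18 against 6 cells).

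Several of the 12 act in the expression of genes. Polr2m, a subunit of RNA polymerase II, had means of 137 and 25.0 CPM and reached 100 CPM in 16 positive and 3 low cells. Nop56, a core protein of box C/D nucleolar particles, had means of 207 and 33.9 CPM. Cpsf2, of the complex that cleaves pre-mRNA before polyadenylation, had means of 200.4 and 36.6 CPM. Tars, the threonyl-tRNA synthetase, had means of 179.7 and 20.0 CPM, and without its highest cell (2964 CPM) the log2 ratio was 1.93 instead of 2.66. All 4 had overlapping groups, with the positive cell higher in 65.5% to 69.2% of pairs.

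The others were Uqcrfs1, the iron-sulfur subunit of respiratory complex III (means 155 and 43.3 CPM, medians 84.7 and 11.1 CPM), Ercc5, an endonuclease of nucleotide excision repair (121 and 23.9 CPM), Elmod3 (122 and 11.9 CPM) and 4833439L19Rik (256 and 29.8 CPM). Of the 12 genes, a Krt17-positive cell had a median of 4 and at most 11 at 100 CPM, and a Krt17-low cell a median of 1 and at most 4. At a Krt17 limit of 500 CPM the log2 ratios of Tnfrsf1a (-0.95), Uqcrfs1 (-0.63), 4833439L19Rik (-0.39) and Tars (-0.04) turned negative. The counts per cell describe genes picked for this difference and add no support to it.

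The 12 genes with the largest deficit in positive cells, ranked in the same way, had log2 ratios of -3.84 to -1.53, or -3.11 to -1.18 without the highest low cell of each gene. Chmp5, of the ESCRT-III membrane scission machinery, had means of 44.2 and 616 CPM and was at 100 CPM in 2 of 38 positive and 13 of 32 low cells, but medians of 20.3 and 27.3 CPM. Most low cells, 19 of 32, were thus below 100 CPM of Chmp5 as well. Parp1, the DNA damage sensor that makes poly(ADP-ribose), had means of 34.9 and 151 CPM (3 against 8 cells at 100 CPM), and the positive cell was higher in 31.5% of pairs. Frmd4a, a scaffold protein of epithelial polarity, was at most 19.1 CPM in positive cells and reached 100 CPM in 6 low cells. Cell 60 (4302 CPM) held 72.4% of its sum over the low cells, and without it the log2 ratio of -3.84 became -2.21.

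Krt23, another type I keratin, also stood among these 12, with means of 39.0 and 203 CPM. It was at 100 CPM in 6 positive and 11 low cells, and its highest value was 1421 CPM in the Krt17-low cell 58 against 323 CPM in positive cells. Gigyf2, a partner in translational repression, had means of 3.01 and 79.3 CPM, Fbxo22, a substrate receptor of a ubiquitin ligase, 23.9 and 105 CPM, and Cops3, of the COP9 signalosome, 70.3 and 222 CPM. Nip7, which acts in the assembly of the large ribosomal subunit, had means of 21.7 and 142 CPM, in the direction opposite to Nop56.

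The rest were Acp5, the tartrate-resistant acid phosphatase (14.1 and 210.4 CPM), Mpv17, of the inner mitochondrial membrane (23.7 and 171 CPM), and the zinc finger genes Zfp740 (15.9 and 310.1 CPM) and Zfp512b (26.6 and 289 CPM). Without their highest low cell the log2 ratio of Zfp740 went from -3.63 to -2.87 and that of Acp5 from -3.20 to -2.56.

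**Figure D5:**
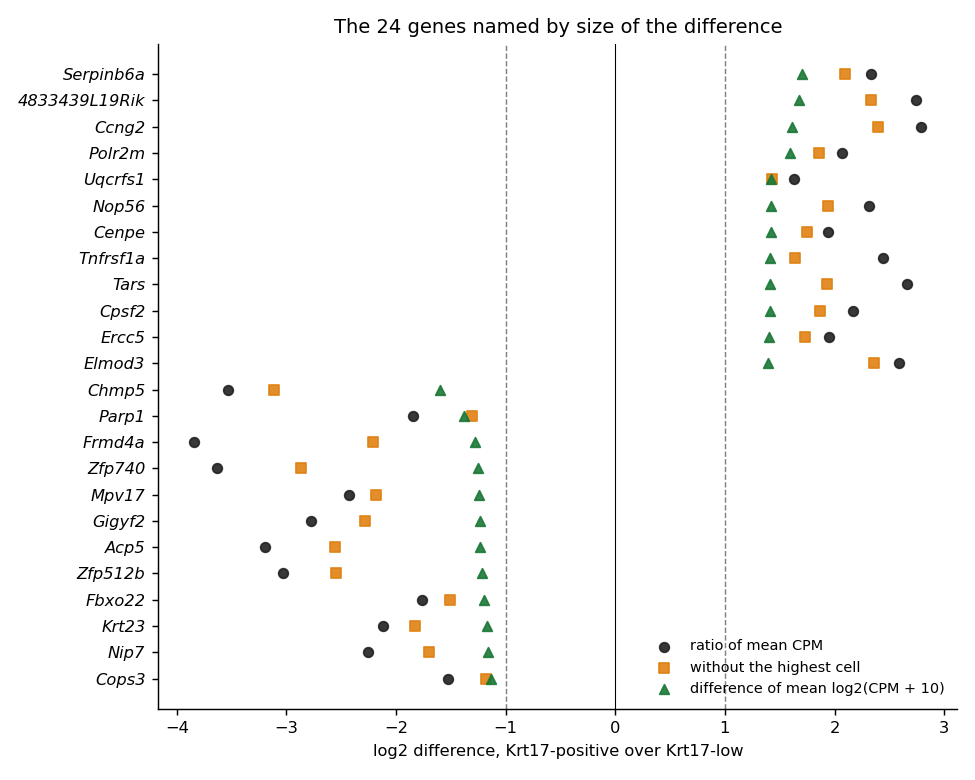
For the 12 higher and the 12 lower genes, the log2 ratio of mean CPM (circles), the same without the highest cell of the higher group (squares) and the difference of mean log2(CPM + 10) (triangles), Krt17-positive over Krt17-low. The triangles lie nearest to 0 for every gene but Parp1, between 1.39 and 1.70 for the higher and between -1.60 and -1.13 for the lower genes, with dashed lines at 2-fold.

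Among the named genes, differences did not as a rule grow further from the middle to the top level of Krt17. Of the 12 higher genes, all 12 had a larger mean both in the 21 cells from 100 to below 500 CPM of Krt17 and in the 17 cells at 500 CPM or more than in the Krt17-low cells, as their choice favours, but in only 5 was the mean larger at 500 CPM or more than from 100 to below 500 CPM. Tnfrsf1a, for example, had means of 32.3, 337 and 74.6 CPM through the 3 levels, and Nop56 33.9, 181 and 239 CPM. Of all 834 genes that were 2-fold higher, 416 (49.9%) had a larger mean at the top level than at the middle level, against 46.6% of all genes compared. Of the 12 lower genes, all 12 had a smaller mean at both levels than in the Krt17-low cells, and 5 fell through all 3 levels. Of all 815 genes that were 2-fold lower, 463 fell through all 3 levels, as their choice favours, and 42.7% had a larger mean at the top level than at the middle level.

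In adult cells the direction of these genes was mixed. At the same limit of 100 CPM, 75 marked adult cells were Krt17-positive and 6 Krt17-low, and 9 of the 24 genes (37.5%) differed in the same direction as in the pregnancy cells, against 48.4% of all 3250 genes compared in both. In the unmarked adult cells, 44 positive and 14 low, it was 11 of 24 (45.8%), against 50.8% of 3318 genes. With the unmarked cells restricted to those with 6 core basal genes, 43 positive and 7 low, a choice made after seeing the data, it was 14 of 24 (58.3%). The named genes were counted here and below whatever their adult level. The 3250 and 3318 genes also had to reach a mean of 50 CPM in the adult cells, so the shares are not of like sets. Elmod3, for example, had means of 5.50 CPM in positive and 0 CPM in low marked adult cells. The 12 higher genes had the same direction in 8 cases (66.7%) in each set, against 65.2% and 59.7% of all genes that were 2-fold higher in pregnancy and compared in both. The 12 lower genes had it in 1 (8.33%) and in 3 cases (25.0%), against 34.8% and 45.6% of all genes that were 2-fold lower. Chmp5, lower in positive pregnancy cells, had means of 432 CPM in positive and 47.2 CPM in low marked adult cells. The adult split also went with the core basal genes, which fewer adult Krt17-low cells had at 100 CPM: Krt14 had log2 ratios of 3.57 and 2.44 there and Krt5 of 4.43 and 1.40. In the marked set, every gene of the immune list had a higher mean in the 6 Krt17-low cells. Cd74 had means of 19.2 CPM in positive and 6449 CPM in low cells, and Tyrobp of 0.203 and 1044 CPM. How many of the 6 cells carried these genes was not counted. Neither full adult comparison was thus one among basal cells alone.

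Gene lists bearing on known settings of keratin 17 showed few 2-fold members. They are read against the 17.9% of all genes that were 2-fold higher and the 17.5% that were 2-fold lower. These shares fall with the level of the genes. In either direction, 41.6% of genes differed at a mean of 50 to below 200 CPM, but 1.71% at 1000 CPM or more. The counts by list below were not matched to level. Over all lists 31 compared genes differed by 2-fold, and 19 of them were below 2-fold without their highest cell. Among all 4653 genes compared, 1649 differed by 2-fold in either direction. Of the 834 higher genes 495, and of the 815 lower genes 623, were likewise lost without the highest cell, so such a loss is not particular to the lists. The compared members of all lists together were not counted, so no share is given for the 31. The 12 that stayed 2-fold were Ajuba, Bub1, Ccl7, Col7a1, Cspg4, Gadd45a, Hmox1, Krt16, Lamb3, Pdgfrb, Pfkp and Wnt5a. At a Krt17 limit of 500 CPM, however, the log2 ratios of Pfkp (-2.33), Cspg4 (-2.23), Csn3 (-1.45), Col7a1 (-0.29) and Hspg2 (-0.18) turned negative. In the hemidesmosome and laminin-332 list, the anchors of basal cells to their basement membrane, 1 of 8 compared genes was higher and 0 were lower. This was Lamb3, a chain of laminin-332, with a range of values up to 1278 CPM in positive and 483 CPM in low cells, medians of 147 and 63.3 CPM, a log2 ratio of 1.24 that was 1.07 without the highest cell, and 24 of 38 against 12 of 32 cells at 100 CPM. Col7a1, the collagen of anchoring fibrils, had means of 306 and 91.4 CPM, and was the only 2-fold higher gene of 8 compared collagens and matricellular genes, of which 1, Col9a1, was lower (108 and 236 CPM). The list of integrins and basement membrane had 1 higher gene, Hspg2, perlecan (51.0 and 17.3 CPM), and 1 lower, Itga2 (16.3 and 63.1 CPM), of 13. The desmosome and adherens junction list had 1 of 9, Dsc2 (64.0 and 17.0 CPM).

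Lists of stress and injury had few 2-fold members as well. All 12 compared immediate early genes and all 12 compared heat shock genes were within 2-fold, with median log2 ratios of -0.16 and 0.06. Some of them, such as Fos, Egr1 and Hsp90ab1, had means above 1000 CPM, where 1.71% of all genes differed by 2-fold. Others had lower means, where 19.5% or 41.6% did, so the counts of 0 are not read as a trait of these lists. Fos had medians of 2934 and 3044 CPM and Jun of 618 and 517 CPM. Among 5 targets of NRF2, the oxidative stress factor that can induce Krt17, only Hmox1, heme oxygenase, was 2-fold higher (111 and 3.68 CPM), from 4 positive cells at 100 CPM. Of 9 YAP targets, Ajuba was higher (68.7 and 9.79 CPM) and none was lower. Of 7 growth arrest and p53 targets, Gadd45g was higher (347 and 163 CPM, 21 against 12 cells at 100 CPM) and Gadd45a lower (18.2 and 57.9 CPM). Among 6 compared genes of keratinocyte injury and the 14-3-3 family, only Il24 was 2-fold higher, and it came from cell 39 alone (2167 CPM). The adaptor 14-3-3 sigma, Sfn, which binds keratin 17 in keratinocytes, is singled out after its values were seen: its medians were 778 and 407 CPM, its log2 ratio was 0.50, and the positive cell was higher in 66.2% of pairs.

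Signalling lists gave single genes as well. Of the Hedgehog pathway, whose activity raises Krt17 in skin tumours, Gli1 had 0 reads in all 70 cells, Gli2 had means of 0 and 0.123 CPM, and 2 genes of the list were compared. The receptor component Smo was 2-fold lower in positive cells (33.0 and 127 CPM), carried by the low cells 60 (2199 CPM) and 13 (900.0 CPM). Of 10 Wnt and Notch genes only Wnt5a was 2-fold higher, with means of 181 and 43.6 CPM but 5 and 4 cells at 100 CPM. Among 9 glycolysis and hypoxia genes, Pfkp was higher (189.6 and 41.9 CPM), with a log2 ratio of 1.94 that was 1.27 without its highest cell, and Adm lower (95.2 and 249 CPM), yet without cell 69 (5673 CPM) the log2 ratio of Adm was 0.33. All 8 compared basal transcription factor and progenitor genes were within 2-fold.

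By count, chemokines and cytokines had the most 2-fold members, 3 lower and 1 higher of 6 compared, with a median log2 ratio of -0.74. Over all genes compared, 17.5% were 2-fold lower and 17.9% higher. By share this list did not stand out. The milk protein list had 1 higher and 2 lower of 4, the fibroblast list 2 lower of 3, and the pericyte list 1 higher and 1 lower of 2. Ccl2, a chemokine for monocytes, had means of 199.8 and 499 CPM and medians of 5.41 and 36.4 CPM, was at 100 CPM in 8 of 38 positive and 11 of 32 low cells, and was highest in the low cells 65 (4914 CPM) and 9 (4630 CPM). Its neighbour on chromosome 11, Ccl7, had means of 40.0 and 348 CPM and was also highest in cell 65 (5021 CPM). Cxcl1, a chemokine for neutrophils, had means of 196 and 475 CPM, but without the low cell 36 (7922 CPM) its log2 ratio was -0.25. The higher gene of the 6 was Csf1, a macrophage growth factor (96.7 and 34.2 CPM, 9 against 3 cells at 100 CPM). By cells, 8 of 38 positive and 8 of 32 low cells had at least 3 genes of the chemokine and cytokine list at 100 CPM.

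Markers of dividing and of milk-producing cells were found in both groups. At least 3 proliferation genes reached 100 CPM in 9 of 38 positive cells (23.7%, exact interval 11.4 to 40.2%) and in 4 of 32 low cells (12.5%, 3.51 to 29.0%). Mki67 had means of 174 and 173 CPM and was at 100 CPM in 15 and 7 cells. Of the 7 compared genes, Bub1 was 2-fold higher (90.0 and 5.47 CPM) and Cdk1 and Pcna 2-fold lower. Csn3, kappa-casein, was at 100 CPM in 14 of 38 positive and 9 of 32 low cells, and its means of 301 and 84.1 CPM rested on cell 46 (6209 CPM), without which the log2 ratio was 0.69. At least 3 genes of the luminal progenitor list, which includes Csn3, reached 100 CPM in 4 of 38 positive cells (10.5%, 2.94 to 24.8%) and in 0 of 32 low cells (0%, 0 to 10.9%). Csn1s1 and Csn1s2a were 2-fold lower, both with their highest value in the low cell 2 (1367 and 5211 CPM).

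Markers of other cell types were low in both groups for most lists, and the luminal progenitor, pan-luminal and fibroblast lists held single genes at higher levels. The 8 luminal progenitor genes summed to medians of 2057 and 2235 CPM, most of it Lcn2, lipocalin 2, with medians of 1794 and 2178 CPM and 37 of 38 and 30 of 32 cells at 100 CPM, while Kit had means of 0.976 and 0.208 CPM and Elf5, a luminal transcription factor, of 0.0841 and 1.87 CPM. Of the 8 pan-luminal genes, Epcam had medians of 416 and 240.1 CPM, with 33 of 38 and 23 of 32 cells at 100 CPM, and Krt8 of 78.2 and 78.0 CPM, and Krt18 was 2-fold lower only through cell 36 (2010 CPM), without which its log2 ratio was -0.20. Of the 10 mature luminal genes none reached a mean of 50 CPM, and Esr1 had means of 2.00 and 3.76 CPM. Of 8 immune and 8 endothelial genes none reached that mean either: their summed level was at most 294 and 94.2 CPM for immune and 95.4 and 178 CPM for endothelial genes in any positive and any low cell, and Ptprc had a mean of 0.228 CPM in positive cells and 0 in low cells. At least 3 immune, endothelial, pericyte, Schwann cell or adipocyte genes reached 100 CPM in 0 of 38 positive cells (exact interval 0 to 9.25%) and in 0 of 32 low cells (0 to 10.9%). Of the pericyte list, Cspg4 was 2-fold higher (62.3 and 13.0 CPM) and Pdgfrb 2-fold lower (8.55 and 55.2 CPM).

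The 8 fibroblast genes summed to 129.6 to 7633 CPM (median 1019) in positive and to 128 to 9311 CPM (median 2181) in low cells. Of the 3 compared, Pdgfra and Fbln2 were 2-fold lower in positive cells and Dcn, decorin, was lower by less (medians 386 and 938 CPM). At least 3 of the list reached 100 CPM in 1 positive cell, cell 67, and in 4 low cells, cells 6, 38, 44 and 62, and each of these 5 cells also had at least 7 core basal genes at 100 CPM. Pdgfra was at 100 CPM in 0 of 38 positive cells and in 3 of 32 low cells, with 3912 CPM in cell 6, without which its log2 ratio went from -3.69 to -0.86. Fbln2 went the other way by detection: 32 of 38 positive and 19 of 32 low cells were at 100 CPM, and the medians were 241 and 234 CPM. The part of these cells in the other differences was not tested cell by cell, but without the 5 cells, a choice made after seeing the data, 889 genes were 2-fold higher and 856 lower, of which 776 and 701 were among the 821 and 746 genes called before and compared both times.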

How the data were processed

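The data were single-cell RNA-seq counts of mammary basal cells captured on the Fluidigm C1 system. Per the study's methods and the labels, the authors mapped read pairs to mm10 with Subread 1.5.0 and counted them per gene by featureCounts on the RefSeq annotation that Rsubread holds; strand use is not given in the sources used here. The deposited values are raw counts of read pairs per gene and cell, without molecular identifiers. A table of the whole series held the same counts and was not used.

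Gene symbols were taken from a RefSeq GRCm38.p6 table, which matched 25275 of 27179 IDs; the unmatched IDs held 2.34% of the reads of pregnancy cells. After 15 mitochondrial and 124 ribosomal protein genes were left out, 25136 genes defined the assigned reads and the CPM. No 2 of the 70 cells had identical counts. With 1 sample per group and no animals named, no model was fitted and cells were not treated as replicates. Genes that reached a mean of 50 CPM in 1 or both groups were compared by the log2 ratio of mean CPM with a pseudocount of 10 CPM, the same without the highest cell of the higher group, the same after thinning to 50000 reads, the difference of mean log2(CPM + 10), and the percent of cell pairs with the Krt17-positive cell higher, ties counting equally to both groups, on thinned counts. The pseudocount shrinks the ratios of low genes. Krt17 was left out of every comparison. The 12 genes named in each direction had the largest smallest absolute value of the first 4 measures, all of 1 sign, a mean of at least 50 CPM in the higher group and a read after thinning in at least 25% of its cells. List members with a 2-fold difference were named too, and some failed the last 2 requirements. The members and the lists were chosen with earlier results of these data known. Shares have exact Clopper-Pearson and sums of reads exact Poisson intervals at 95%. The measures were tested on simulated data. These were Poisson draws around shared means, without the spread between cells seen here, so they checked the calculation only. Transcripts were those of GENCODE for GRCm38. Python 3.11.15, numpy 2.4.6, pandas 2.3.3 and scipy 1.17.1 were used. Alternatives covered the Krt17 limit, pseudocount, scaling, thinning, filters on genes and cells, and cell 71.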

Additional observations from a re-analysis of the deposited data

Results flagged for a closer look

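Krt17 reads were present in pregnancy cells outside the comparison, at more than the 3 reads that a count of 0 allows. Cell 68, with 28885 assigned reads, had 12 Krt17 reads, or 415 CPM (exact Poisson interval 6.20 to 21.0 reads), and 10 core basal genes at 100 CPM. Cell 73, with 25426 assigned reads, had 4 reads, or 157 CPM (1.09 to 10.2 reads). Their mitochondrial shares were 58.4% and 93.3% of all reads, above the highest share of 54.3% in the cells compared. The other cells left out, cells 3, 12 and 71, had 3, 2 and 2 Krt17 reads. The groups of the comparison hold more than 10 cells each, so single cells were not tested as outliers.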

How the results depend on the processing

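No paired analysis was possible because the cell numbers pair nothing and no test was made. Of 86 values of the main results under the alternatives, 71 moved by less than 1.5 times, the counting interval or the spread between cells, and 15 moved more. Instead of 834 higher and 815 lower genes and a median absolute log2 ratio of 0.68, a pseudocount of 100 CPM gave 100, 122 and 0.36, the difference of mean log2(CPM + 10) gave 102, 40 and 0.30, all 16308 genes with a read gave 1662, 1482 and 0.30, and a minimum mean of 200 CPM gave 86, 129 and 0.43. Scaling to all reads gave 528 lower and 671 higher genes. A larger pseudocount shrinks every ratio and the filters change which genes are compared, by construction. For the log2 difference and the scaling the cause was not tested. The share of Krt17-positive cells was 68.6% at a limit of 50 CPM and 24.3% at 500 CPM. At 500 CPM, 357 of 745 higher genes (47.9%) and 435 of 606 lower genes (71.8%) that could be compared in both were called again.

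Of 432 values of the 24 named genes under the alternatives, 410 kept the direction and 2-fold size. At a limit of 500 CPM, log2 ratios reversed for 4833439L19Rik (-0.39), Uqcrfs1 (-0.63), Tnfrsf1a (-0.95), Tars (-0.04), Pfkp (-2.33), Hspg2 (-0.18), Csn3 (-1.45), Cspg4 (-2.23) and Col7a1 (-0.29). At 50 CPM they reversed for Krt18 (0.32), Cxcl1 (0.40) and Adm (1.07). Adm also reversed by the difference of mean log2 (0.15), without cells between 50 and 200 CPM of Krt17 (0.32) and without its highest cell (0.33). Il24 reversed without its highest cell (-0.15), and Csn3 when cell 71 was included (-2.02). Depth, mitochondrial share, genes per cell and the adult comparison changed by less than these limits. Without the 3 cells with over 7000 genes, a choice made after seeing the data, 836 genes were higher and 830 lower. Depth limits single cells, since the cell nearest above the Krt17 limit had 26 reads of it, and unnamed animals allow no statement beyond these cells.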
